A study of Homo sapiens with 9 samples.

Results

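Perivascular progenitor cells grown from human embryonic stem cells (hESC) were set against the undifferentiated stem cells they came from. All 11991 genes with a named and detected probe were compared, and the members are 6 of the 9 arrays of the series, 3 of progenitors and 3 of hESC. Every group is of the H9 line, a single established hESC line. The progenitors came from embryoid bodies, floating aggregates grown for 6 days in serum replacement with BMP4 at 40 nM, which were dissociated and plated on collagen in EGM2-MV, a growth medium for small-vessel endothelial cells. Cells that stuck to the plate were passaged at confluency, and neither their passage number nor a sort by surface marker is given in the sources used here. The hESC grew on a feeder layer of mouse embryonic fibroblasts with bFGF at 4 ng/ml, so that feeder layer, medium, coating and cell state cannot be told apart. The remaining 3 arrays, of the embryoid bodies, took part only in the estimate of the spread. The labels number the arrays of a group and do not say whether a number is a separate culture, and the p-values below measure the spread between these arrays, which may be technical.

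Pericytes and other perivascular cells wrap the endothelial tube of small vessels, share its basement membrane, and receive platelet-derived growth factor from the endothelium through the receptor PDGFRB. They contract, secrete matrix and steady the vessel wall, and in the retina their loss is an early event in diabetes. Undifferentiated stem cells are epithelial: they are held together by E-cadherin, divide rapidly with a short first gap phase, and keep their state through POU5F1, SOX2 and NANOG.

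Total RNA was measured on Illumina BeadChips, on which each bead type carries 1 probe sequence. Levels are normalized log2 intensities of 1 probe per gene, and a difference of 1 is a 2-fold difference. The intensities of different probes are not comparable, so that levels are set against each other only within a gene. A gene is called higher or lower in progenitors where limma's adjusted p was under 0.05 and the difference at least 2-fold. Where all 3 arrays of a group left every probe of the gene undetected, the change is given as "at least" a fold over that group's detection limit.

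Between 17964 and 18761 probes were detected per progenitor array and between 19873 and 21172 per hESC array, of 47323 on the chip. In each group 1 array stood apart. Progenitor 2 differed at least 2-fold from progenitors 1 and 3 in 657 and 600 genes, while progenitors 1 and 3 differed from each other in 29. HESC 3 differed so from hESC 1 and 2 in 446 and 425 genes, while hESC 1 and 2 differed from each other in 2. Between the groups, any pair of arrays differed in 3907 to 4625 genes. Values are therefore given array by array for the genes that matter most, always in the order 1, 2, 3.

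Of the 11991 genes, 4043 (33.7%) were called: 1759 (14.7%) were higher and 2284 (19%) lower in progenitors. These shares of all genes are the background for the counts of each gene list below. By adjusted p alone, at any size of change, 8210 genes (68.5%) differed. The authors' normalized values gave 1270 higher and 1357 lower genes, and median scaling in place of quantiles 1436 higher and 2788 lower. In the fit used here 855 genes were at least 4-fold lower and 605 at least 4-fold higher, and 38 were at least 64-fold lower and 14 at least 64-fold higher. Each named probe had been detected on at least 4 of the 9 arrays, so a transcript found on the 3 progenitor arrays alone has no name here and is missing from the rises. In these terms 719 of the called falls were of genes undetected on every progenitor array, and 35 of the called rises were of genes undetected on every hESC array. The median log2 fold change over all genes was -0.07, and 2874 genes differed by less than 1.2-fold. The arrays of the groups did not overlap for 8565 of the 11991 genes (71.4%). Groups without overlap, given below for single genes, were therefore the common case. In these bulk samples fewer cells of a kind and less RNA per cell cannot be told apart.

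**Figure D1:**
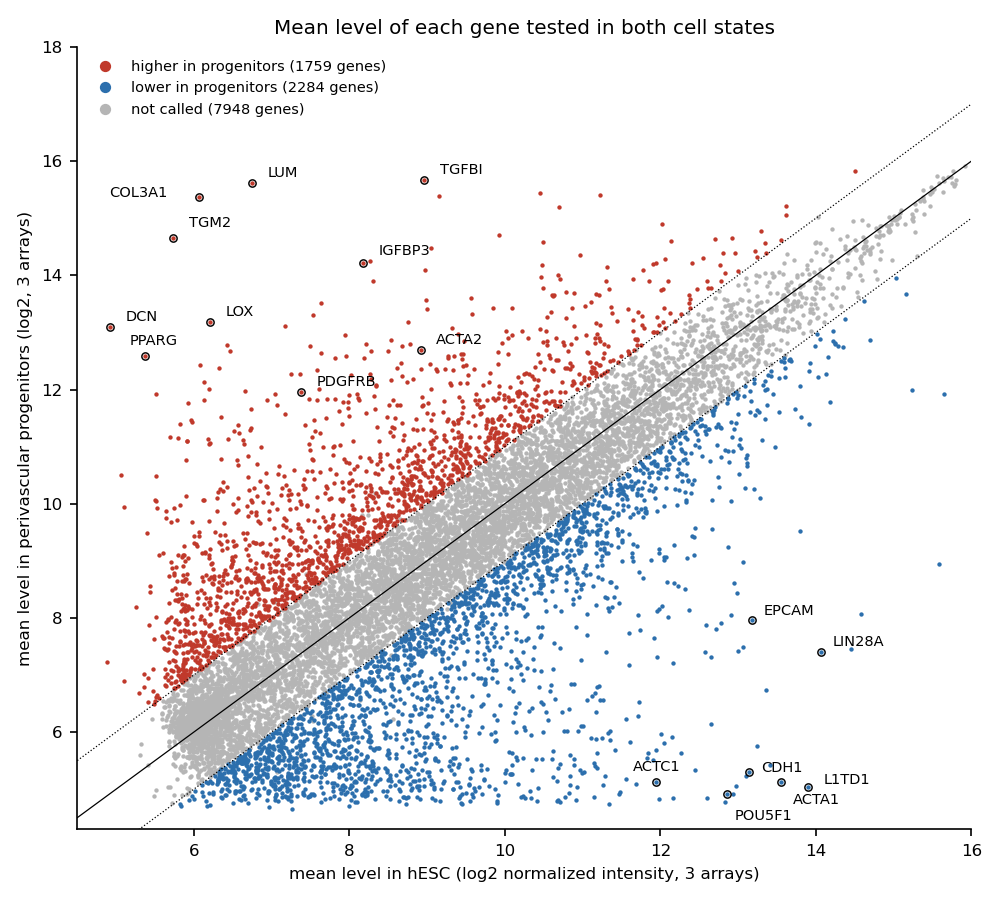
Mean level of each of the 11991 genes in hESC (horizontal axis) and in perivascular progenitors (vertical axis), both as log2 normalized intensity over 3 arrays. Red points are the 1759 genes higher and blue points the 2284 genes lower in progenitors, grey points were not called, the dotted lines mark a 2-fold difference, and circled genes are described in the text.

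The 6 genes given to mark the cell states ran in the labelled direction. COL3A1, the main chain of type III collagen, read 15.19, 15.74 and 15.19 on the progenitor arrays, against 6.29, 6.10 and 5.79 on the hESC arrays (log2 fold change 9.31, SE 0.17, adjusted p = 9.22e-10). TGM2, a transglutaminase that crosslinks matrix proteins, read 14.39, 15.13 and 14.45 on the progenitor arrays, against 5.75, 5.97 and 5.48 on the hESC arrays. These were the largest rises among all genes called, and no array of one group came near the other group. PDGFRB read 11.82, 12.26 and 11.78 on the progenitor arrays, against 7.54, 7.27 and 7.33 on the hESC arrays, and ACTA2, the alpha actin of smooth muscle, read 12.52, 13.09 and 12.48 on the progenitor arrays, against 8.82, 8.78 and 9.16 on the hESC arrays (log2 fold change 3.78, SE 0.18, adjusted p = 1.81e-07). CDH1, which encodes E-cadherin, read 5.39, 5.17 and 5.35 on the progenitor arrays, against 13.01, 13.13 and 13.29 on the hESC arrays, and was at least 135-fold lower in progenitors (adjusted p = 1.92e-10). POU5F1 read 4.91, 5.06 and 4.78 on the progenitor arrays, against 12.81, 12.92 and 12.83 on the hESC arrays on its main probe, which was undetected on the progenitor arrays and at least 110-fold lower (adjusted p = 1.2e-10). A second probe named POU5F1 read 6.03 in progenitors and 6.02 in hESC, and was not called, so the probes of this gene disagree. Of the values printed here, TGM2 was detected on 1 hESC array and COL3A1 on 2.

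The marker lists by cell type gave more detail. A sum below adds the same probes in each group, weighs bright probes most, and is set against that of the other group only. All 8 stem cell markers fell, and their summed linear intensity was 832 to 891 on the progenitor arrays, against 80380 to 100633 on the hESC arrays. Of 7 stromal markers 6 rose and THY1 fell, and the sum was 119308 to 190445 in progenitors and 6388 to 9138 in hESC. Of 8 pericyte markers 5 were tested, of which PDGFRB and ANPEP rose, NOTCH3 fell and RGS5 and KCNJ8 did not pass. Of 5 smooth muscle markers 4 were tested, of which ACTA2 rose and CNN1 fell, with sums of 16255 to 19036 in progenitors and 7330 to 12260 in hESC. Of the endothelial markers 2 of 7 were tested, with sums of 1601 to 3057 in progenitors and 1175 to 2135 in hESC, and of the blood markers 2 of 5, with sums of 100.1 to 127 in progenitors and 174 to 185 in hESC. These lists mark the progenitors as stromal, and do not set a pericyte apart from another stromal cell: 2 of the 5 tested pericyte markers were higher. The part of other cell types in the results was not tested.

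**Figure D2:**
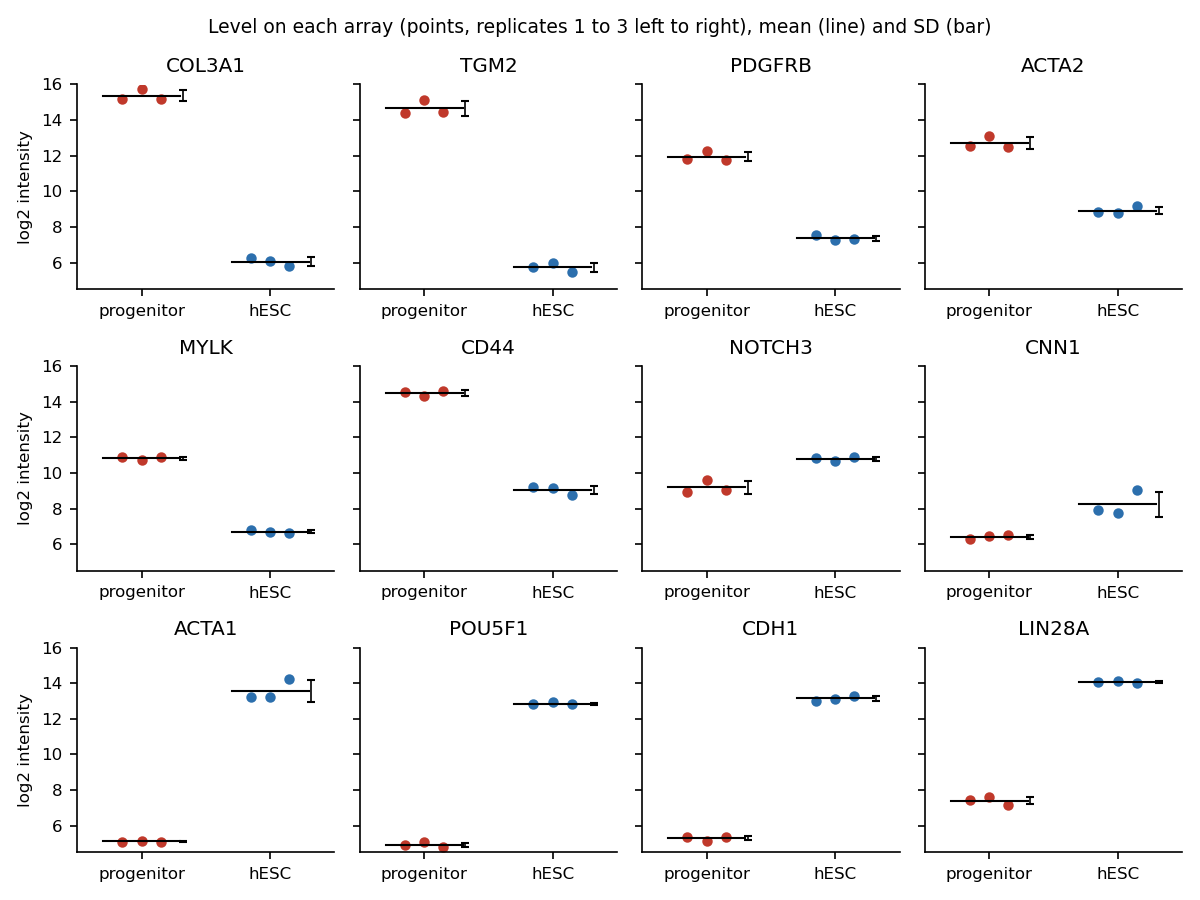
Level of 12 genes on each array, as log2 normalized intensity, with the 3 perivascular progenitor arrays (red) left of the 3 hESC arrays (blue); points run from replicate 1 to replicate 3, the line is the mean and the bar the SD. COL3A1, TGM2, PDGFRB, ACTA2, MYLK and CD44 lie higher in progenitors, and NOTCH3, CNN1, ACTA1, POU5F1, CDH1 and LIN28A lower. In none of the 12 genes do the groups overlap, which held for 71.4% of all genes tested.

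The transcription factors that hold the stem cell state were mostly lower in progenitors. Of 34 listed, 32 were tested, 26 fell, 4 rose and 2 did not pass, with a median log2 fold change of -4.17. SOX2, the partner of POU5F1, read 5.17, 5.06 and 5.06 on the progenitor arrays, against 11.59, 11.57 and 11.89 on the hESC arrays, at least 48.8-fold lower in progenitors. MYCN, a growth-promoting factor of the MYC family, read 5.42, 5.03 and 5.22 on the progenitor arrays, against 13.04, 13.03 and 13.22 on the hESC arrays, and fell at least 130-fold. Both were undetected on every progenitor array and steady over the hESC arrays. MYC itself, the widely expressed relative of MYCN, did not pass, with 11.58, 10.70 and 11.57 in progenitors and 11.03, 11.05 and 11.83 in hESC. The falls extended to the zinc finger factors ZSCAN10 (at least 92.3-fold), PRDM14 (at least 37.1-fold), SALL4 (-4.72) and ZFP42 (-4.87), with log2 fold changes in brackets. The developmental pluripotency genes DPPA4 (-4.26), DPPA2 (at least 8.01-fold) and DPPA5 (at least 11.1-fold) fell with them. Against this direction, TBX3, a T-box factor active in both stem cells and limb mesenchyme, rose by a log2 fold change of 4.14, and PRDM1, a repressor of many lineage programmes, rose by 3.05.

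NANOG depended on which arrays were counted. It read 5.09, 5.16 and 5.17 on the progenitor arrays, where it was undetected, and 11.23, 11.18 and 5.23 on the hESC arrays: hESC 1 and 2 were high and hESC 3 was undetected, level with the progenitor arrays. The fall was at least 8.82-fold over all arrays (adjusted p = 0.0227) and at least 35.1-fold without hESC 3 (adjusted p = 1.86e-09), and it was not called without hESC 1 (adjusted p = 0.0843). The call was also lost without hESC 2 (fitted log2 fold change -3.08) and without progenitor 1 (-4.05), 2 (-4.09) or 3 (-4.08). HESC 3 was also low for EOMES and TBXT, T-box factors of the primitive streak, the source of mesoderm. EOMES read 4.93, 4.81 and 4.89 on the progenitor arrays, against 10.88, 10.91 and 6.47 on the hESC arrays, and TBXT read 5.15, 5.22 and 5.17 on the progenitor arrays, against 9.50, 9.54 and 6.15 on the hESC arrays. With hESC 1 and 2 averaged, and likewise progenitors 1 and 3, NANOG (fitted log2 fold change -3.07), EOMES (-3.82) and TBXT (-2.64) were not called. POU5F1, SOX2 and LIN28A were not low on hESC 3. What set hESC 3 apart was not tested.

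Below the transcription factors, stem cell genes for RNA binding, DNA methylation and metabolism fell without a single rise: of 44 listed, 39 were tested, 30 fell and 9 did not pass. L1TD1, an RNA-binding protein derived from a retrotransposon, had the largest fall of all genes called, with 5.14, 4.93 and 5.05 on the progenitor arrays, against 13.74, 13.76 and 14.18 on the hESC arrays, and was at least 226-fold lower in progenitors. LIN28A, which blocks maturation of let-7 microRNAs, read 7.43, 7.61 and 7.19 on the progenitor arrays, against 14.09, 14.11 and 14.01 on the hESC arrays. Its relative LIN28B (-1.69) and TRIM71, a target of let-7 (at least 60.4-fold), were lower as well. DNMT3B, a methyltransferase that places new DNA methylation, read 8.02, 8.14 and 8.04 on the progenitor arrays, against 14.42, 14.41 and 14.94 on the hESC arrays (log2 fold change -6.52, SE 0.14, adjusted p = 1.75e-09), whereas the falls of DNMT3A (-1.42) and of the maintenance enzyme DNMT1 (-1.11) were smaller, that of DNMT3A not called on the authors' normalized values (-0.58). TET1, which oxidises methylated cytosine, fell by 2.95 on the log2 scale. GLDC, the glycine-cleaving enzyme, fell at least 120-fold, and ALPL, the alkaline phosphatase used to stain stem cell colonies, read 6.10, 5.64 and 5.53 in progenitors and 13.29, 13.34 and 13.09 in hESC. TERF1, a telomere-binding protein, read 9.07, 8.93 and 8.94 in progenitors and 13.03, 12.96 and 13.19 in hESC. All of these were lower on every progenitor array than on any hESC array.

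A few probes on the chip report microRNA genes. MIR302C belongs to the cluster that is highly active in human pluripotent cells, and read 6.17, 6.03 and 6.81 on the progenitor arrays, against 9.10, 8.92 and 8.74 on the hESC arrays (log2 fold change -2.58, SE 0.19, adjusted p = 3.2e-06). MIR221, known in vascular smooth muscle for targeting cell cycle inhibitors, read 7.90, 8.46 and 7.72 on the progenitor arrays, against 5.84, 6.32 and 6.09 on the hESC arrays (log2 fold change 1.94, SE 0.23, adjusted p = 5.91e-05). Both were named after their values were seen. The groups did not overlap for either gene. Which transcript each probe reads is not given in the sources used here, so these values give no level of a mature microRNA. The mature sequences are shown because their seeds, bases 2 to 8 in capitals, set which messages each can pair with. They come from RefSeq on GRCh38.p14, minus strand, with miR-302c-3p at chr4:112648366-112648388, miR-302c-5p at chr4:112648402-112648423 and miR-221-3p at chrX:45746180-45746202, and no seed is shared.
hsa-miR-302c-3p: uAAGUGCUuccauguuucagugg
hsa-miR-302c-5p: uUUAACAUggggguaccugcug
hsa-miR-221-3p: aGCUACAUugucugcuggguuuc

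At the cell surface most stem cell markers were lower in progenitors. Of 43 listed, 40 were tested, and 36 fell, 1 rose and 3 did not pass (median -4.84). PODXL, a sialomucin whose epitopes are used to sort stem cells, read 7.57, 7.21 and 7.56 on the progenitor arrays, against 14.36, 14.33 and 14.66 on the hESC arrays. EPCAM, an epithelial adhesion molecule, read 7.96, 7.93 and 7.98 on the progenitor arrays, against 12.66, 13.19 and 13.67 on the hESC arrays, and CD24, a mucin-like surface protein, read 8.54, 9.76 and 8.51 on the progenitor arrays, against 15.58, 15.50 and 15.69 on the hESC arrays. GPC4, a heparan sulfate proteoglycan, fell at least 116-fold and CNTNAP2, a neurexin relative, at least 108-fold. The secreted NODAL (at least 25.9-fold) and GDF3 (at least 19-fold), ligands of the activin branch of the TGF-beta family, fell together with the NODAL inhibitors LEFTY1 (at least 34.7-fold) and LEFTY2 (-5.44). THY1, a marker shared by stem cells and bone marrow stromal cells, read 8.40, 9.62 and 8.41 on the progenitor arrays, against 11.69, 11.74 and 11.73 on the hESC arrays (log2 fold change -2.91, SE 0.28, adjusted p = 1.73e-05), and progenitor 2 lay above the other progenitor arrays. The one rise was ALCAM (1.57), an adhesion molecule of both stem cells and stromal cells.

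Epithelial junction genes fell, but not evenly. Of 60 listed genes 44 were tested, 30 fell, 2 rose and 12 did not pass (median -2.23). The membrane proteins led: besides CDH1, the cadherin CDH3 fell at least 44.7-fold, and of the tight junction claudins CLDN6 fell at least 20.2-fold and CLDN10 at least 30.2-fold. MAL2, a protein of apical transport, fell at least 33.7-fold. The epithelial splicing factor ESRP1 read 5.71, 5.52 and 5.37 in progenitors and 8.75, 9.11 and 9.44 in hESC, and OVOL2, a repressor of mesenchymal genes, fell at least 10.3-fold. The cytoplasmic catenins that link cadherins to actin were not called: CTNNB1 (0.12), CTNNA1 (-0.14) and CTNND1 (0.08). Nor were JUP (0.34) and DSP (-0.36) of desmosomes, and the desmosomal cadherin DSC3 (1.74) rose.

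Of the factors that drive epithelial cells into a mesenchymal state, in the epithelial-mesenchymal transition (EMT), SNAI2 rose most. It read 12.04, 12.0 and 12.01 on the progenitor arrays, against 6.65, 6.85 and 5.09 on the hESC arrays (log2 fold change 5.82, SE 0.38, adjusted p = 1.45e-06). TWIST1 read 10.05, 10.33 and 10.10 on the progenitor arrays, against 6.71, 6.94 and 7.98 on the hESC arrays, and ZEB2 read 8.67, 9.15 and 8.67 on the progenitor arrays, against 6.89, 6.83 and 5.46 on the hESC arrays. All 3 encode repressors of E-cadherin, and each was higher on every progenitor array than on any hESC array. The cadherins of mesenchyme differed among themselves: CDH11, a cadherin of stromal cells and osteoblasts, read 10.45, 11.83 and 10.54 on the progenitor arrays, against 8.02, 7.82 and 6.63 on the hESC arrays, while CDH2, which encodes N-cadherin, read 12.36, 12.91 and 12.41 on the progenitor arrays, against 12.29, 12.20 and 11.99 on the hESC arrays (log2 fold change 0.40, SE 0.16, adjusted p = 0.0458) and did not reach 2-fold. Of 27 listed EMT factors and cadherins 14 were tested, 6 rose, 4 fell and 4 did not pass. The falls included OVOL2, described above, and the factor TCF4 (-1.07), which lost the call on the authors' normalized values (-0.88). Of 15 tested filament genes 4 rose and 5 fell. The intermediate filament genes VIM (1.47) and SYNM (3.14) rose, and so did the nuclear lamin gene LMNA (2.95), while LMNB1 (-1.59), the lamin of proliferating cells, and the neurofilament genes INA (-3.93) and NEFM (at least 6.34-fold) fell. KRT8, a keratin of simple epithelia, read 13.23, 12.71 and 13.16 in progenitors and 11.75, 11.86 and 11.34 in hESC, so this epithelial filament was higher in progenitors (log2 fold change 1.38, SE 0.17, adjusted p = 9.45e-05).

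The extracellular matrix held the largest rises: COL3A1, TGM2, LUM and DCN led all genes called higher. Of 35 listed collagen chains 25 were tested, 17 rose, 3 fell and 5 did not pass, with a median log2 fold change of 2.55. The chains of fibrillar type I and type V collagen all rose: COL1A1 (4.09), COL1A2 (2.81), COL5A1 (4.79) and COL5A2 (4.04). The microfibrillar type VI chain COL6A3 read 12.39, 13.02 and 12.50 on the progenitor arrays, against 7.64, 7.69 and 7.59 on the hESC arrays, ahead of COL6A1 (2.08) and COL6A2 (2.55). Basement membrane type IV chains, which a pericyte and an endothelial cell lay down together, rose too, with COL4A2 at 11.82, 12.19 and 11.78 in progenitors and 8.09, 8.12 and 8.09 in hESC and COL4A1 at 14.81, 15.14 and 14.77 in progenitors and 11.87, 11.99 and 12.22 in hESC. COL12A1, of a collagen that coats fibrils, and COL8A1, of a short-chain collagen of vessel walls, rose by log2 fold changes of 4.01 and 4.18. The falls were of the cartilage chains COL9A1 (at least 6.32-fold) and COL9A3 (at least 2.75-fold) and of COL23A1 (at least 2-fold). COL9A3 and COL23A1 lost the call on the authors' normalized values, with -0.88 and -0.58.

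The machinery that modifies, secretes and crosslinks collagen rose with the chains. Of 41 listed genes 28 were tested, 19 rose, none fell and 9 did not pass (median 1.83). LOX, which crosslinks collagen and elastin outside the cell, read 12.82, 13.74 and 12.98 on the progenitor arrays, against 5.83, 5.94 and 6.85 on the hESC arrays (log2 fold change 6.97, SE 0.30, adjusted p = 9.17e-08), and its relative LOXL1 (2.19) rose less. The prolyl hydroxylases P4HA2 (3.38) and P4HA1 (1.83), the lysyl hydroxylases PLOD1 (2.57), PLOD2 (2.32) and PLOD3 (1.93), and the collagen chaperone SERPINH1 (2.29) all rose. BMP1, the protease that trims procollagen, read 9.44, 9.89 and 9.41 in progenitors and 7.66, 7.59 and 6.83 in hESC, and SEC23A, a coat protein of vesicles large enough for procollagen, read 10.66, 10.59 and 10.76 in progenitors and 8.25, 8.49 and 8.82 in hESC. SPARC, a collagen-binding protein, read 13.92, 14.63 and 13.98 on the progenitor arrays, against 10.25, 10.23 and 10.95 on the hESC arrays. The peptidyl-prolyl isomerase PPIB (0.61) and CRTAP (0.90), of a prolyl hydroxylase complex, stayed under 2-fold.

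Small leucine-rich proteoglycans made up the other large rises. LUM, which encodes lumican, a regulator of fibril diameter, read 15.38, 15.86 and 15.61 on the progenitor arrays, against 7.26, 7.15 and 5.82 on the hESC arrays (log2 fold change 8.88, SE 0.34, adjusted p = 3.79e-08). DCN, which encodes decorin, read 12.76, 13.75 and 12.78 on the progenitor arrays, against 4.91, 4.96 and 4.91 on the hESC arrays and was at least 148-fold higher in progenitors (adjusted p = 7.68e-09). TGFBI, a TGF-beta induced matrix protein, read 15.61, 15.78 and 15.64 on the progenitor arrays, against 9.16, 9.16 and 8.57 on the hESC arrays. For all 3 genes the groups did not overlap, although hESC 3 was the lowest hESC array for LUM and progenitor 2 the highest progenitor array for DCN. Of 77 listed proteoglycans and glycoproteins 55 were tested, 27 rose, 10 fell and 18 did not pass (median 1.01). Among the rises were the thrombospondin THBS1 (4.59), the microfibril protein MFAP4 (4.24), CTHRC1 (4.43), the fibulin FBLN5 (2.93) and the laminin chain LAMB1 (2.50). LAMA1, the laminin alpha chain of early embryos, fell at least 17-fold, and the heparan sulfate proteoglycan gene GPC3 at least 14.4-fold, while GPC1 (3.33) and GPC6 (2.76) rose. HAS3, which makes hyaluronan, fell at least 27.1-fold, and elastin (0.18) and versican (-0.87) did not pass, under the symbols ELN and VCAN, although VCAN was called lower without progenitor 2 (-1.25).

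Matrix-degrading enzymes and their inhibitors rose side by side. Of 55 listed 34 were tested, 22 rose, 4 fell and 8 did not pass (median 2.26). TIMP1, an inhibitor of metalloproteases, read 15.25, 15.64 and 15.32 on the progenitor arrays, against 11.29, 11.28 and 11.11 on the hESC arrays, and TIMP2 (2.47) and RECK (2.29), further inhibitors, rose as well. PLAT and PLAU, the plasminogen activators, rose by 4.66 and 3.26 and the receptor gene PLAUR by 3.95. ADAMTS1, which cleaves versican, read 11.65, 12.74 and 11.63 in progenitors and 7.42, 7.31 and 8.10 in hESC. The falls were all of metalloproteases: MMP25 (-3.62), MMP9 (at least 3.65-fold), MMP15 (at least 3.87-fold) and MMP24 (at least 3.02-fold), the last lost on the authors' normalized values (-0.97).

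Markers of pericytes split. Of 47 listed mural genes 30 were tested, 14 rose, 6 fell and 10 did not pass (median 0.83). On the rising side, beside PDGFRB, stood CD248, the endosialin of activated pericytes, with 11.21, 12.47 and 11.27 on the progenitor arrays, against 6.76, 6.70 and 6.74 on the hESC arrays (log2 fold change 4.92, SE 0.29, adjusted p = 6.48e-07). CD44, a hyaluronan receptor, read 14.55, 14.30 and 14.61 on the progenitor arrays, against 9.22, 9.15 and 8.77 on the hESC arrays. ANGPT1, the ligand with which pericytes signal to the endothelial receptor TEK, read 11.83, 11.79 and 11.88 on the progenitor arrays, against 7.48, 7.62 and 7.34 on the hESC arrays (log2 fold change 4.35, SE 0.12, adjusted p = 6.9e-09). For each of these genes all progenitor arrays lay above all hESC arrays. Of all genes tested, 71.4% had groups that did not overlap, in either direction. The aminopeptidase ANPEP (2.76), the sphingosine phosphate receptor S1PR3 (3.79) and CYGB (3.76), which encodes a globin of pericyte-like liver cells, rose too. TBX18, a T-box factor that marks mural cells in mice, rose by 1.33, and lost the call on the authors' normalized values (0.74).

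On the falling side stood NOTCH3, the Notch receptor of mural cells, with 8.90, 9.58 and 9.07 on the progenitor arrays, against 10.82, 10.65 and 10.89 on the hESC arrays (log2 fold change -1.60, SE 0.17, adjusted p = 2.7e-05). HEY2 and HEYL, transcription factors downstream of Notch in vessels, fell with it: HEY2 read 4.82, 4.81 and 4.80 on the progenitor arrays, against 10.73, 10.70 and 11.30 on the hESC arrays, at least 28.6-fold lower in progenitors, and HEYL fell by 2.39 on the log2 scale. HEY1, of the same family, moved the other way but did not reach 2-fold, with log2 fold changes of 0.63 and 0.995 on its probes. EDNRB, an endothelin receptor, read 6.98, 7.67 and 7.29 on the progenitor arrays, against 11.83, 11.86 and 12.18 on the hESC arrays. For NOTCH3, HEY2 and EDNRB every progenitor array was below every hESC array. RGS5, a regulator of G-protein signals that is widely used to mark retinal and brain pericytes, read 6.22, 6.13 and 6.40 on the progenitor arrays, against 6.89, 6.77 and 7.50 on the hESC arrays (log2 fold change -0.81, SE 0.19, adjusted p = 0.00397). KCNJ8, a subunit of the ATP-sensitive potassium channel of pericytes, read 6.01, 5.84 and 6.22 on the progenitor arrays, against 6.54, 6.60 and 7.25 on the hESC arrays (log2 fold change -0.77, SE 0.20, adjusted p = 0.00677). Neither gene reached 2-fold, both lay lower on each progenitor array than on any hESC array, and KCNJ8 was detected on 1 progenitor array. With median scaling in place of quantiles, RGS5 was called lower (-1.05). The pericyte markers CSPG4, MCAM and ABCC9 were not tested, which leaves their level in progenitors unmeasured here.

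Contractile genes moved in opposite directions within a single family. Of 70 listed smooth muscle and cytoskeletal genes 55 were tested, 19 rose, 5 fell and 31 did not pass (median 0.61). Of the actins, ACTA2 rose, ACTG2, the smooth muscle gamma actin, read 12.95, 12.78 and 12.99 on the progenitor arrays, against 10.63, 10.67 and 12.17 on the hESC arrays (log2 fold change 1.75, SE 0.35, adjusted p = 0.00173), and the cytoplasmic actins ACTB (0.07) and ACTG1 (0.12) did not pass. The striated muscle actins fell: ACTA1 of skeletal muscle read 5.11, 5.15 and 5.10 on the progenitor arrays, against 13.20, 13.21 and 14.25 on the hESC arrays, at least 179-fold lower in progenitors, and ACTC1 of heart muscle read 5.13, 5.31 and 4.92 on the progenitor arrays, against 11.57, 11.65 and 12.61 on the hESC arrays, at least 58.5-fold lower. HESC 3 was the highest hESC array for ACTA2, ACTG2, ACTA1 and ACTC1, and for ACTG2 it came within 1 log2 unit of the progenitors. With progenitors 1 and 3 averaged and hESC 1 and 2 averaged, the call for ACTG2 was lost (1.47).

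MYLK, the kinase that switches on smooth muscle myosin, read 10.88, 10.73 and 10.88 on the progenitor arrays, against 6.77, 6.71 and 6.62 on the hESC arrays (log2 fold change 4.13, SE 0.11, adjusted p = 5.03e-09), and a second MYLK probe rose as well. TGFB1I1, a coactivator of smooth muscle genes, read 10.50, 10.46 and 10.44 on the progenitor arrays, against 6.59, 6.44 and 7.05 on the hESC arrays. The light chain MYL9 (1.57), the non-muscle myosin MYH9 (1.44), the tropomyosin TPM2 (1.59) and the actin-bundling PALLD (2.61) also rose. CNN1, which encodes calponin of mature smooth muscle, read 6.27, 6.46 and 6.51 on the progenitor arrays, against 7.90, 7.74 and 9.05 on the hESC arrays and fell (log2 fold change -1.82, SE 0.29, adjusted p = 0.000475), and TAGLN, which encodes transgelin, read 13.32, 13.29 and 13.31 on the progenitor arrays, against 12.66, 12.66 and 13.43 on the hESC arrays and did not pass (log2 fold change 0.39, SE 0.19, adjusted p = 0.0906). The caldesmon gene CALD1 (1.29) rose, while SMTN (0.59), which encodes smoothelin, stayed under 2-fold. SRF (-0.40), the serum response factor that binds the promoters of these genes, did not reach 2-fold, nor did its coactivators MRTFA (0.63) and MRTFB (0.12).

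**Figure D3:**
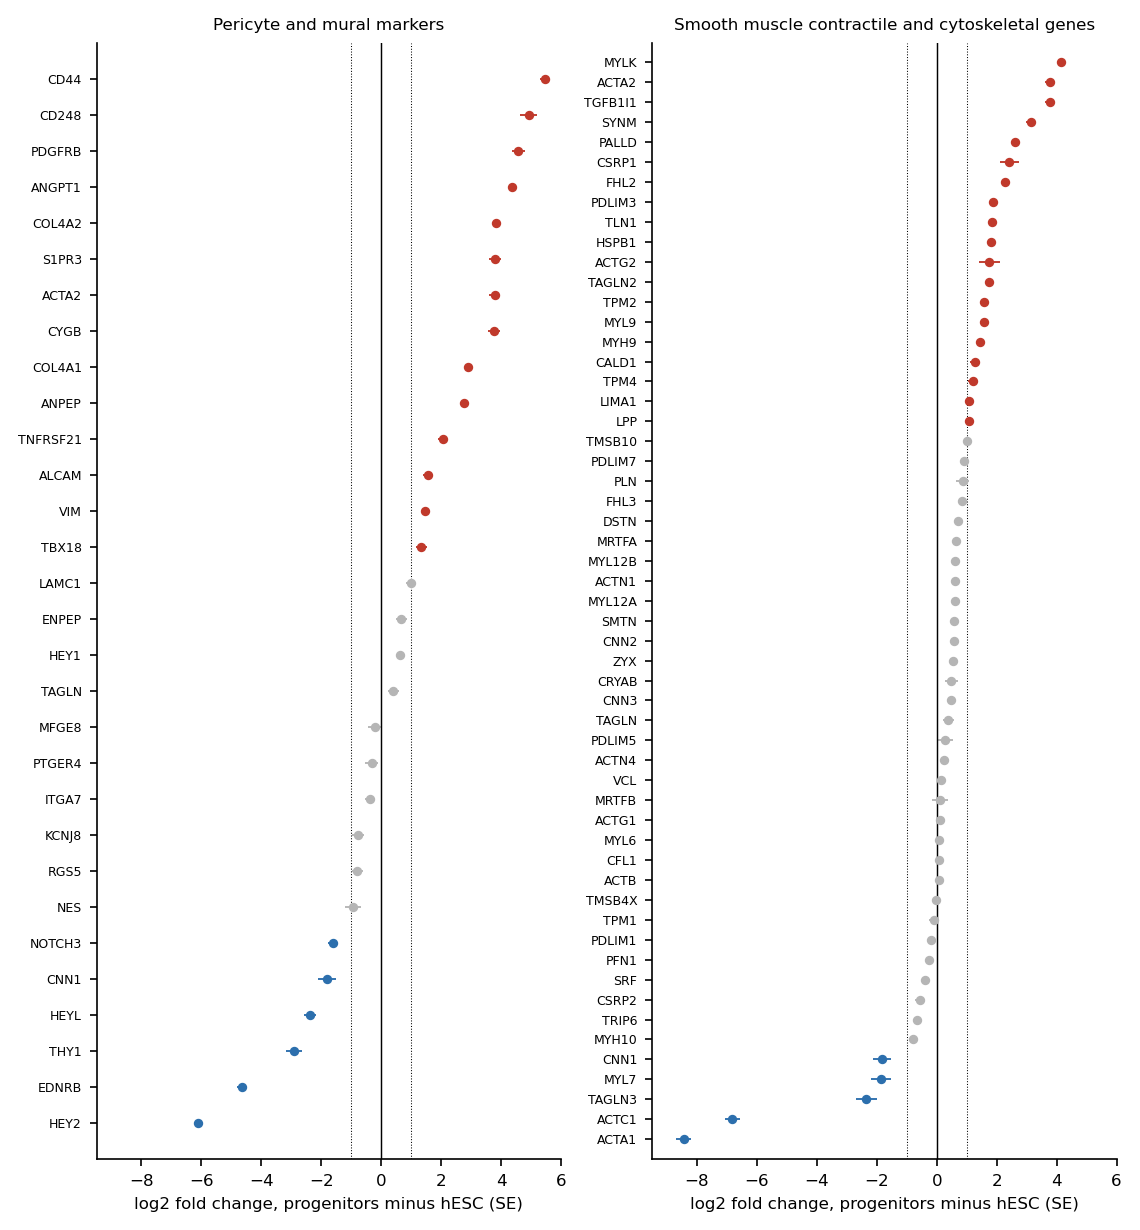
Log2 fold change, progenitors minus hESC, of the 30 tested mural genes (left panel) and the 55 tested smooth muscle and cytoskeletal genes (right panel); bars are standard errors of the fit, red genes were called higher, blue genes lower and grey genes not called, and dotted lines mark 2-fold. CD44, CD248 and PDGFRB stand at the top of the left panel and HEY2 and EDNRB at its bottom, and MYLK, ACTA2 and TGFB1I1 stand at the top of the right panel and ACTC1 and ACTA1 at its bottom.

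The promoters of 4 contractile genes are shown because genes with the same element moved in opposite directions. Serum response factor binds the CArG box, which reads the same on both strands, and its matches are in capitals. Each stretch is RefSeq sequence on GRCh38.p14, 250 bases before to 50 after a transcription start, written 5′ to 3′ along the gene. It lies at chr10:88952724-88953023 on the minus strand for ACTA2, at chr2:73892758-73893057 on the plus strand for ACTG2, at chr3:123620499-123620798 on the minus strand for MYLK and at chr1:229434045-229434344 on the minus strand for ACTA1. For ACTA2 the 2 matches each hold 1 mismatch in the middle 6 bases, and the other genes are shown with exact matches. Where a gene has several listed starts, the one with the most matches is shown. It need not be the start of the transcript that the probe measures. For MYLK it need not be the start of the transcript that encodes the kinase.
ACTA2: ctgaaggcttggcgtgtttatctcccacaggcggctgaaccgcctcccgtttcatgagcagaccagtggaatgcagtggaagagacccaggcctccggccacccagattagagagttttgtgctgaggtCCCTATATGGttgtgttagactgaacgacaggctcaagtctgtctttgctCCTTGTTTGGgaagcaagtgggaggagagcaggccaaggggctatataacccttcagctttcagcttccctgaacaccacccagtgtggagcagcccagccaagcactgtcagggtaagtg
ACTG2: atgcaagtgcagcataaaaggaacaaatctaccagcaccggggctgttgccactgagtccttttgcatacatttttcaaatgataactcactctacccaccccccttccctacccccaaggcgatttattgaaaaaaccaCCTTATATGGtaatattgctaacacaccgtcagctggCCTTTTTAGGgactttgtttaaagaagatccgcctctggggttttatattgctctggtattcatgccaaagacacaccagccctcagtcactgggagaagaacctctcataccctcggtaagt
MYLK: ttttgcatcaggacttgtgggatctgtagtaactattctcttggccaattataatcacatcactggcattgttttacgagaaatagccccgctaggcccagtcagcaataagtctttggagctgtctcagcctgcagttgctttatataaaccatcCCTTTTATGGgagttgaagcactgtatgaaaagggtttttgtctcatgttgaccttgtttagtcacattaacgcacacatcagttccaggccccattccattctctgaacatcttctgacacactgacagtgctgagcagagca
ACTA1: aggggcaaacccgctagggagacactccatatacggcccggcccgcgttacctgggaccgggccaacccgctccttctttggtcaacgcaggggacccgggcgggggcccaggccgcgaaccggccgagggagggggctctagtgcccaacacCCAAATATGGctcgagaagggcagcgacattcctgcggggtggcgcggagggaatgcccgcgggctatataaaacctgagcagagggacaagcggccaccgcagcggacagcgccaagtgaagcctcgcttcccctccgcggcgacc

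An exact CArG box stood at a listed start of 438 of 27305 genes in the RefSeq table (1.60%). It stood at 14 of the 51 tested smooth muscle genes that have an entry, which were 6 of 18 that rose, 3 of 5 that fell and 5 that were not called. ACTA1 and ACTC1 were among the genes that fell and MYLK, FHL2, TGFB1I1 and ACTG2 among those that rose. With 1 mismatch allowed, 2698 of the 27305 genes (9.88%) and 20 of the 51 held a match. Over all genes tested with an entry, an exact box stood at 36 of 1416 that rose, 32 of 1777 that fell and 98 of 6493 that were not called. The match describes these letters only, and binding was not measured.

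Surface markers by which mesenchymal stromal cells are recognised were mostly higher in progenitors. Of 47 listed 34 were tested, 26 rose, 1 fell and 7 did not pass (median 2.08). VCAM1, an adhesion molecule for white blood cells, read 11.57, 11.10 and 11.51 on the progenitor arrays, against 6.06, 5.99 and 5.40 on the hESC arrays (log2 fold change 5.57, SE 0.19, adjusted p = 1.91e-08), and PDGFRA, the second PDGF receptor, read 11.49, 12.43 and 11.58 on the progenitor arrays, against 7.93, 7.80 and 7.41 on the hESC arrays. IL6ST, the shared receptor chain of IL6-type cytokines, read 14.12, 14.45 and 14.22 on the progenitor arrays, against 8.56, 8.32 and 7.92 on the hESC arrays. The one fall was THY1, described above. B2M, the light chain of MHC class I, read 13.88, 14.31 and 13.64 on the progenitor arrays, against 10.78, 10.87 and 10.48 on the hESC arrays. CAV1, which encodes caveolin, read 12.66, 11.43 and 12.74 on the progenitor arrays, against 11.20, 11.16 and 12.42 on the hESC arrays: progenitor 2 was near the hESC arrays and hESC 3 near the progenitors, so that the groups overlapped and no call was made (log2 fold change 0.68, adjusted p = 0.164). Without progenitor 2 its log2 fold change was 1.11 and without hESC 3 it was 1.10, both called.

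Among integrins, chains of collagen and fibronectin receptors rose. Of 45 listed integrin and focal adhesion genes 34 were tested, 13 rose, 4 fell and 17 did not pass. ITGA11, a collagen receptor chain, read 10.80, 11.66 and 10.85 on the progenitor arrays, against 6.04, 5.72 and 5.97 on the hESC arrays, and ITGA5 (3.37), the fibronectin receptor chain, ITGA3 (2.87), ITGA2 (2.76) and ITGAV (2.05) rose as well. PARVA, an adaptor between integrins and actin, read 11.77, 11.89 and 11.82 on the progenitor arrays, against 7.79, 7.82 and 7.83 on the hESC arrays. ITGA6, the laminin receptor chain of stem cells, fell at least 1.95-fold, and lost the call on the authors' normalized values (-0.78). FERMT1, the epithelial kindlin, fell by 2.22 on the log2 scale while its widely expressed relative FERMT2 (-0.10) did not pass, and the focal adhesion kinase PTK2 (-0.04) and ILK (0.37) did not pass either. Caveola, annexin and S100 genes rose more often than they fell: of 32 tested members 17 rose and 2 fell (median 1.22). LGALS1, which encodes a galectin of stromal cells, read 15.18, 15.10 and 15.32 in progenitors and 10.31, 10.34 and 11.42 in hESC, and S100A6 read 14.07, 13.95 and 13.98 in progenitors and 11.15, 11.13 and 9.76 in hESC.

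Growth factor ligands and receptors moved in both directions. Of 85 listed genes 61 were tested, 27 rose, 13 fell and 21 did not pass. Among secreted factors, VEGFC, a growth factor of lymphatic vessels, read 9.88, 9.23 and 9.88 on the progenitor arrays, against 6.30, 6.36 and 6.51 on the hESC arrays, VEGFA, the main endothelial growth factor, read 9.29, 8.89 and 9.40 on the progenitor arrays, against 7.23, 7.32 and 7.56 on the hESC arrays, and PDGFC, a ligand of PDGFRA, read 10.28, 10.43 and 10.14 on the progenitor arrays, against 6.49, 6.82 and 7.0 on the hESC arrays. The progenitors thus read higher for all 3, on every array. PDGFB, the endothelial ligand of PDGFRB, read 6.43, 6.47 and 6.28 in progenitors and 5.99, 5.98 and 6.16 in hESC and did not pass. IGFBP3, which binds insulin-like growth factors, read 13.81, 15.18 and 13.65 on the progenitor arrays, against 8.25, 8.02 and 8.25 on the hESC arrays, and progenitor 2 lay above the other progenitor arrays by over 1 log2 unit. IGFBP5 read 15.31, 15.39 and 15.45 on the progenitor arrays, against 9.77, 9.60 and 8.08 on the hESC arrays and IGFBP7 11.97, 11.70 and 11.90 on the progenitor arrays, against 7.96, 8.04 and 8.34 on the hESC arrays. Among receptors, NRP1, which helps VEGF receptors, rose by 3.70, EGFR by 2.83 and LIFR by 2.85. The FGF receptors FGFR3 (-3.86) and FGFR4 (-2.71), the stem cell factor receptor KIT (-4.39) and ERBB3 (at least 7.71-fold) fell. FGF2, which was also an additive of the hESC medium, fell by 2.03 on the log2 scale.

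In the TGF-beta family TGFBR2, BMPR2 and SMAD3 rose, while NODAL and GDF3 fell. Of 74 listed 50 were tested, 17 rose, 12 fell and 21 did not pass. TGFBR2, the receptor that binds TGF-beta, read 11.99, 12.56 and 11.98 on the progenitor arrays, against 8.13, 8.18 and 8.54 on the hESC arrays, and SMAD3, which carries its signal, read 11.61, 11.89 and 11.67 on the progenitor arrays, against 8.55, 8.62 and 8.36 on the hESC arrays. BMPR2, a BMP receptor, rose by 2.89, and GREM1, a secreted BMP antagonist, read 12.35, 12.11 and 12.34 on the progenitor arrays, against 6.96, 7.14 and 7.67 on the hESC arrays. GDF15, a stress-induced member of the family, read 13.50, 12.81 and 13.59 on the progenitor arrays, against 7.61, 7.50 and 7.50 on the hESC arrays. BMP7 fell at least 6.28-fold and the activin receptor ACVR2B at least 4.21-fold. The BMP targets ID1 (-0.75), ID2 (-1.04) and ID3 (0.22) were not called, although ID2 was called lower without hESC 3 (-1.66).

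Of the WNT pathway 64 genes were listed and 39 tested, of which 8 rose, 16 fell and 15 did not pass. WNT5A, a ligand that mostly signals without beta-catenin, read 11.46, 11.31 and 11.35 on the progenitor arrays, against 7.08, 6.74 and 5.86 on the hESC arrays, and DKK1, a secreted WNT inhibitor, read 12.18, 12.67 and 12.25 on the progenitor arrays, against 10.21, 10.07 and 6.48 on the hESC arrays. AXIN2, a transcriptional target of beta-catenin, read 8.02, 8.60 and 7.85 on the progenitor arrays, against 12.0, 11.97 and 11.99 on the hESC arrays. TCF7L1, the TCF of stem cells, fell by 2.87 on the log2 scale while LEF1 (1.77) rose, a call lost without both hESC 3 and progenitor 2 (0.88). SFRP2, a WNT-binding protein, fell at least 29.8-fold, and the WNT5A receptors ROR1 (-3.22) and ROR2 (-2.22) were lower although their ligand was higher. Of 32 tested Notch genes 5 rose (15.6%) and 10 fell (31.25%), against 14.7% and 19% of all genes. The ligands DLL1 (-1.51), DLL3 (-1.98) and JAG2 (-1.22) were among the falls, and NOTCH1 (-0.38), JAG1 (-0.92) and the target HES1 (-0.16) were not called. The rises included DLK1 (1.80), NUMBL (1.17), NOTCH2 (1.16) and NCSTN (1.14). NUMBL (0.69) and NOTCH2 (0.80) lost the call on the authors' normalized values. JAG1 was called lower without progenitor 1 (-1.11) or progenitor 3 (-1.10), and DLL1 (-0.69) and JAG2 (-0.68) lost the call on the authors' normalized values.

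Factors of mesoderm rose more often than they fell. Of 103 listed 60 were tested, 28 rose, 14 fell and 18 did not pass (median 0.78). PPARG, the master regulator of fat cells, read 12.47, 12.69 and 12.58 on the progenitor arrays, against 5.65, 5.38 and 5.08 on the hESC arrays, at least 104-fold higher in progenitors. PITX1, a factor of hindlimb mesenchyme, read 12.63, 13.09 and 12.64 on the progenitor arrays, against 7.01, 6.93 and 5.33 on the hESC arrays, and EPAS1, a hypoxia-inducible factor abundant in vessels, read 12.61, 12.87 and 12.57 on the progenitor arrays, against 6.47, 6.26 and 6.65 on the hESC arrays. Each was higher on all progenitor arrays than on any hESC array. NR2F1 read 11.09, 12.84 and 11.35 on the progenitor arrays, against 6.47, 6.0 and 5.31 on the hESC arrays, CEBPD read 13.74, 14.27 and 13.67 on the progenitor arrays, against 8.39, 8.32 and 8.19 on the hESC arrays, and HAND2, of limb and heart mesoderm, rose by 3.94. MEIS2, a partner of HOX proteins, rose by 4.72 and FOXD1, a factor of kidney stroma and of pericyte progenitors in mice, by 3.11.

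HAND1, of lateral and extraembryonic mesoderm, read 5.87, 8.91 and 5.85 on the progenitor arrays, against 10.57, 10.71 and 8.40 on the hESC arrays (log2 fold change -3.01, SE 0.85, adjusted p = 0.0112): progenitor 2 was higher than hESC 3, so that the groups overlapped. With progenitors 1 and 3 averaged and hESC 1 and 2 averaged, the call for HAND1 was lost (-2.13). Of the 45 listed HOX genes, cofactors and CDX regulators 13 were tested, 8 rose, 1 fell and 4 did not pass. The HOX genes that rose were HOXC6 with 10.70, 11.75 and 10.76 on the progenitor arrays, against 6.17, 6.22 and 6.21 on the hESC arrays, HOXC8 with 9.36, 10.26 and 9.44 on the progenitor arrays, against 6.15, 5.63 and 5.33 on the hESC arrays and HOXB5 with 9.49, 10.29 and 9.32 on the progenitor arrays, against 6.15, 6.21 and 6.22 on the hESC arrays, beside HOXB2 (2.81) and HOXB6 (1.41), and progenitor 2 was the highest array for HOXC6, HOXC8 and HOXB5. HOXA2 (-0.17) and HOXC4 (-0.05) were not called, and HOXB6 lost the call on the authors' normalized values (0.78).

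Markers of other fates differed by lineage. Of the endothelial markers KDR and TEK could be tested, and PECAM1, CDH5, VWF, TIE1 and CLDN5 could not. KDR, the main VEGF receptor, read 6.72, 8.46 and 7.18 on the progenitor arrays, against 9.24, 9.06 and 8.06 on the hESC arrays, and its call as lower (log2 fold change -1.33, SE 0.44, adjusted p = 0.0221) was lost without hESC 1 (-1.11), without hESC 2 (-1.20), without progenitor 1 (-0.96) and without progenitor 3 (-1.19). TEK read 10.55, 11.40 and 10.57 on the progenitor arrays, against 9.16, 9.40 and 10.87 on the hESC arrays (log2 fold change 1.03, SE 0.41, adjusted p = 0.0501) and was not called with all arrays, but was called without hESC 3 (1.56). HESC 3 was the lowest hESC array for KDR and the highest for TEK. KDR also lost its call on the authors' normalized values (-0.85). NOS3, the endothelial nitric oxide synthase, read 8.37, 7.76 and 8.38 on the progenitor arrays, against 6.39, 5.99 and 5.42 on the hESC arrays and rose (log2 fold change 2.24, SE 0.25, adjusted p = 4.24e-05). Of 15 tested endothelial and blood genes 3 rose (20%) and 1 fell (6.67%), against 14.7% and 19% of all genes. Of 57 tested neural genes 34 fell and 5 rose (median -1.59): the motor protein gene KIF1A fell at least 161-fold, OTX2 of the forebrain at least 19.2-fold and PTPRZ1 at least 42.3-fold, while NCAM1 (4.65), STMN2 (4.40) and SCG2 (3.05) rose. Of 21 tested endoderm, yolk sac and trophoblast genes 3 rose, 8 fell and 10 did not pass. The rises were IGFBP3 (6.04), EGFR (2.83) and CDX2 (1.54), the last a call lost without progenitor 2 (0.97) or hESC 3 (0.96). CDX2 also lost the call on the authors' normalized values (0.97) and with median scaling (1.31). The falls included FOXA3 (at least 14-fold) and AFP (at least 7.56-fold), both undetected on the progenitor arrays.

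Among genes of cartilage, bone, fat and skeletal muscle, 7 of 28 tested rose and 11 fell. Apart from PPARG and the CEBP factors, the fat genes ADIPOQ (0.24) and LPL (0.80) were not called, and of the bone genes RUNX2 (0.73) and BGLAP (-0.09) were not called, nor was the cartilage factor SOX9 (0.83). The sarcomere genes ACTN3 (at least 11.3-fold), TNNT1 (at least 5.49-fold) and TNNI3 (at least 4.15-fold) fell with ACTA1 and ACTC1.

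Proliferation genes were lower across the cycle. Of 88 listed 83 were tested, 60 fell, 3 rose and 20 did not pass, with a median log2 fold change of -1.60. The MCM helicase that opens replication origins fell as a whole: MCM2 (-2.93), MCM3 (-2.41), MCM4 (-2.86), MCM5 (-2.73), MCM6 (-2.51) and MCM7 (-2.27). MCM2 read 9.08, 6.98 and 9.02 on the progenitor arrays, against 11.23, 11.37 and 11.27 on the hESC arrays, and MCM6 read 11.80, 10.68 and 11.73 on the progenitor arrays, against 13.83, 13.93 and 13.97 on the hESC arrays. CDC25A, the phosphatase that opens S phase and is kept high in stem cells, read 8.95, 7.69 and 9.0 on the progenitor arrays, against 11.41, 11.40 and 11.49 on the hESC arrays, and CCNE1, the cyclin of S phase entry, read 8.43, 8.44 and 8.56 on the progenitor arrays, against 10.55, 10.66 and 10.62 on the hESC arrays. Progenitor 2 was the lowest progenitor array for MCM2, MCM6 and CDC25A. Mitotic genes such as BUB1 (-2.57), AURKB (-2.17) and CCNB1 (-1.93) fell by similar steps. The deepest fall of the list, that of MCM2, was shallower than the median fall of the pluripotency factors. The cyclins of the first gap phase differed: CCND3 (2.93) rose, CCND1 read 13.81, 13.64 and 13.86 in progenitors and 12.96, 12.88 and 12.10 in hESC, and CCND2 (-0.81) did not pass. The call of CCND1 was lost without hESC 3 (0.86).

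Inhibitors of the cycle rose against this background. Of 47 listed growth arrest, p53 target and senescence genes 40 were tested, 19 rose, 3 fell and 18 did not pass (median 0.95). CDKN1A, the p53 target that encodes p21, read 15.43, 15.40 and 15.50 on the progenitor arrays, against 10.38, 10.65 and 10.32 on the hESC arrays (log2 fold change 4.99, SE 0.11, adjusted p = 1.42e-09). CDKN2A, the locus of p16 and p14ARF, read 9.15, 8.85 and 9.39 on the progenitor arrays, against 5.84, 5.37 and 5.61 on the hESC arrays, and its neighbour CDKN2B, which encodes p15, read 8.89, 9.41 and 8.89 on the progenitor arrays, against 6.40, 6.50 and 6.56 on the hESC arrays. GADD45A, a growth arrest gene, rose by 2.92. Further p53 targets differed: GDF15 (5.77) and IGFBP3 (6.04) rose, and MDM2 (0.57), BAX (0.11) and FAS (0.56) were not called. The place of the probe within CDKN2A is not given in the sources used here, so its 2 products cannot be told apart.

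DNA repair and ribosome production fell with the cycle. Of 39 tested repair genes 25 fell and none rose (median -1.47), led by UNG (-2.86), which removes uracil from DNA, BLM (-2.65) and RAD54L (-2.59). Of 45 tested genes of the nucleolus 29 fell and none rose (median -1.10), with NOLC1 (-1.94), NOP56 (-1.92) and RRP9 (-1.95) lowest, the last lost on the authors' normalized values (-0.96). Of 59 tested splicing and RNA processing genes 19 fell, 3 rose and 37 were without a call: the rises were MBNL1 (3.03) and MBNL2 (2.51), which shift splicing from embryonic to adult forms, and RBM24 (2.06). Of 61 tested chromatin regulators 20 fell and 5 rose. Of the Polycomb genes, JARID2 (-3.62), CBX2 (-3.67), PHC1 (-3.20) and EZH2 (-1.64) fell and PHC2 (3.02) rose. Outside that group, ARID5B (5.49) rose.

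**Figure D4:**
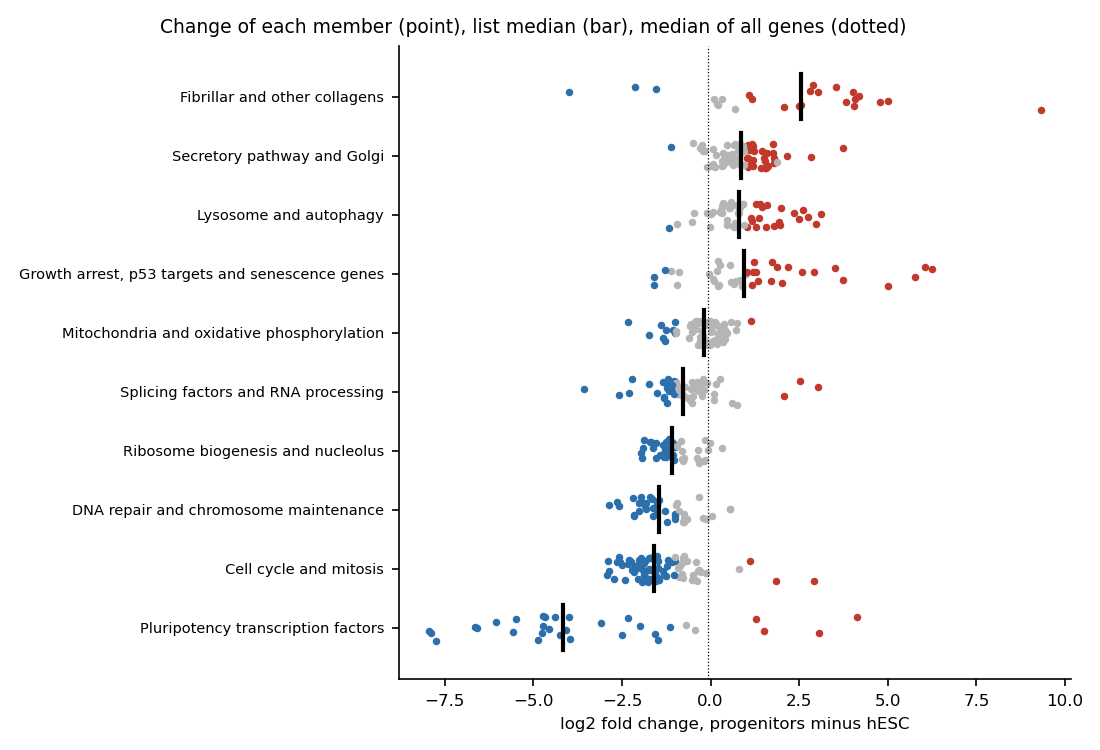
Log2 fold change, progenitors minus hESC, of every tested member of 10 gene lists (points), with each list's median (black bar) and the median of all 11991 genes (dotted line); red members were called higher, blue lower and grey not called, and the vertical scatter within a row carries no value. Collagens lie to the right with a median of 2.55, mitochondrial genes stand near the dotted line, and cell cycle genes lie to the left with a median of -1.60.

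Promoters of 3 falling cell cycle genes are shown with the elements by which their class is known. E2F factors bind elements of S phase genes, searched as TTTGGCGC, TTTCCCGC, TTTCGCGC and TTTGCCGC on both strands, and mitotic genes carry the element TTTGAA, searched on both strands. Matches are in capitals, and overlapping matches of both strands run together. All 3 are RefSeq sequence on GRCh38.p14 in the same window as above, with MCM2 at chr3:127598161-127598460 on the plus strand, MCM6 at chr2:135876394-135876693 on the minus strand and CDC20, an activator of the anaphase-promoting complex, at chr1:43358731-43359030 on the plus strand.
MCM2: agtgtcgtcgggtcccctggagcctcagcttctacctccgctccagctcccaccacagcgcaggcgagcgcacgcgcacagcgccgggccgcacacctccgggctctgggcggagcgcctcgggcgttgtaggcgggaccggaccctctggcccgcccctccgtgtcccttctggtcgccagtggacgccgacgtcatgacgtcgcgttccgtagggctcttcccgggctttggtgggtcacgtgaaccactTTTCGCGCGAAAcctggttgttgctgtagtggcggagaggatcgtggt
MCM6: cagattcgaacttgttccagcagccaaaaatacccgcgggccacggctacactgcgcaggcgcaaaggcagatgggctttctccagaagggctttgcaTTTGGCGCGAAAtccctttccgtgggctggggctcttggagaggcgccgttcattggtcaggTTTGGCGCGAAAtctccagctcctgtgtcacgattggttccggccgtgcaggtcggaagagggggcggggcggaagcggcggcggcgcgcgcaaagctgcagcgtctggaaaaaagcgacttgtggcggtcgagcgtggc
CDC20: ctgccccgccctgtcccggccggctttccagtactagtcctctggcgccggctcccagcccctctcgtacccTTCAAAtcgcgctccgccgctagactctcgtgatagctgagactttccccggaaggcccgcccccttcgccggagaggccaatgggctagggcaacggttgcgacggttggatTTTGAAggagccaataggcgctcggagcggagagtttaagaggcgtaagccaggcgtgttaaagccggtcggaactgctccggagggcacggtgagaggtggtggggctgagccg

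The E2F letters stood at a listed start of 1090 of 27305 genes (3.99%) and of 21 of the 67 tested cell cycle genes with an entry, 19 of them among the 51 that fell. TTTGAA stood at 4961 of 27305 genes (18.2%) and at 25 of the 67, with 21 among the 51 that fell. CDC20 read 12.06, 11.02 and 12.11 on the progenitor arrays, against 13.29, 13.39 and 13.42 on the hESC arrays (log2 fold change -1.64, SE 0.25, adjusted p = 0.000338). Over all tested genes with an entry, the E2F letters stood at 68 of 1416 that rose, 140 of 1777 that fell and 431 of 6493 that were not called.

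Inflammatory genes were higher in progenitors. Of 52 listed 32 were tested, 18 rose, 5 fell and 9 did not pass (median 1.45). CXCL8, the neutrophil chemokine, read 12.25, 11.47 and 12.21 on the progenitor arrays, against 6.52, 6.69 and 6.76 on the hESC arrays, and IL1A, an interleukin released by stressed cells, read 10.62, 10.84 and 10.59 on the progenitor arrays, against 6.54, 6.38 and 6.80 on the hESC arrays. IL6 read 9.54, 8.21 and 9.50 on the progenitor arrays, against 6.40, 6.35 and 6.85 on the hESC arrays. TNFAIP3, a brake on NF-kB, rose by 3.38, and CXCL12, a chemokine of bone marrow stroma, read 7.66, 7.35 and 7.83 on the progenitor arrays, against 10.24, 10.32 and 10.26 on the hESC arrays, lower in progenitors. Progenitor 2 was the lowest progenitor array for CXCL8 and IL6. Of 44 tested MHC class I and interferon genes 20 rose and 3 fell: of antigen presentation, HLA-B (2.42), HLA-E (1.90), TAPBP (2.15) and PSMB9 (2.29) rose, and IRF1, an interferon-regulated factor, rose by 3.09. The interferon-induced genes were split: IFI16, a DNA sensor, rose by 4.88, the largest rise of the list, MX1 (-1.17), IFITM1 (-1.36) and IFI30 (-1.03) fell, and OAS1 (0.40), IFIT1 (0.34), ISG15 (0.77) and IFI6 (0.03) were not called. MX1 lost the call without progenitor 2 (-0.66) or hESC 3 (-1.06), and IFI30 without progenitor 3 (-0.80) or hESC 1 (-0.96). On the authors' normalized values MX1 (-0.90) and IFI30 (-0.43) were not called either.

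Genes of the secretory route rose more often than they fell. Of 68 tested genes 27 rose, 1 fell and 40 did not pass (median 0.87), with KDELR3 (3.74), a retrieval receptor, and RCN3 (2.85) ahead. In the unfolded protein and integrated stress list, 14 of 41 rose and 1 fell. The chaperone HSPA5 read 11.77, 11.89 and 11.80 on the progenitor arrays, against 9.51, 9.55 and 9.93 on the hESC arrays, DDIT3, a stress-induced factor, read 11.01, 10.11 and 10.96 on the progenitor arrays, against 6.98, 6.92 and 6.55 on the hESC arrays, and TRIB3 rose by 3.38, while ATF4 (0.04), XBP1 (0.11) and ASNS (0.05) were not called. Of 51 tested lysosome and autophagy genes 20 rose and 1 fell, with the cathepsins CTSZ (3.12), CTSB (2.74) and CTSL (2.50) ahead.

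Calls were made for 16.4% of the tested mitochondrial genes and 21.4% of the cholesterol and lipid genes, against 33.7% of all genes. The glycolysis and hypoxia list had 22.2% higher and 20% lower, against 14.7% and 19% of all genes. Of 61 tested mitochondrial genes 51 did not pass, 9 fell and 1 rose (median -0.19). The falls included CYCS, which encodes cytochrome c, with 6.88, 6.14 and 6.73 in progenitors and 9.11, 8.96 and 8.70 in hESC. TFAM (-1.41), a mitochondrial transcription factor, fell too. Of 45 tested glycolysis and hypoxia genes 10 rose and 9 fell: the enzymes of the glycolytic chain GAPDH (0.22), PGK1 (-0.17), LDHA (0.06) and ENO1 (-0.52) were not called, the glucose transporters SLC2A1 (-1.97) and SLC2A3 (-1.84) fell, and NDRG1 (2.92) and HIF1A (1.99) rose. Of 42 tested cholesterol and lipid genes 33 did not pass, and HMGCS1, at the head of sterol synthesis, fell by 2.12 on the log2 scale while ABCA1, which exports cholesterol, rose by 3.29.

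Of 30 tested Hippo and YAP target genes 13 rose and 3 fell. After IGFBP3, described above, the largest rise was of F3, the tissue factor that starts clotting, with 12.26, 11.99 and 12.55 on the progenitor arrays, against 7.20, 7.27 and 7.63 on the hESC arrays. Of 48 tested channels and transporters 12 rose (25%) and 13 fell (27.1%), against 14.7% and 19% of all genes. KCNMA1, the large calcium-activated potassium channel of smooth muscle, rose by 2.03. GJA1, a gap junction connexin, fell by 1.13 on the log2 scale, a call lost without progenitor 1 (-0.84) or progenitor 3 (-0.94). Of 42 tested guidance genes 8 rose and 18 fell, with EPHA1 (-5.22), SEMA6A (-5.57) and SEMA4D (at least 33.6-fold) lowest. Of 22 tested imprinted genes 7 rose and 3 fell, and PLAGL1, an imprinted growth regulator, read 10.15, 11.89 and 10.27 on the progenitor arrays, against 6.26, 6.10 and 5.33 on the hESC arrays, while IGF2, the paternally expressed growth factor, read 8.11, 8.92 and 8.22 on the progenitor arrays, against 5.92, 5.78 and 5.79 on the hESC arrays.

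**Figure D5:**
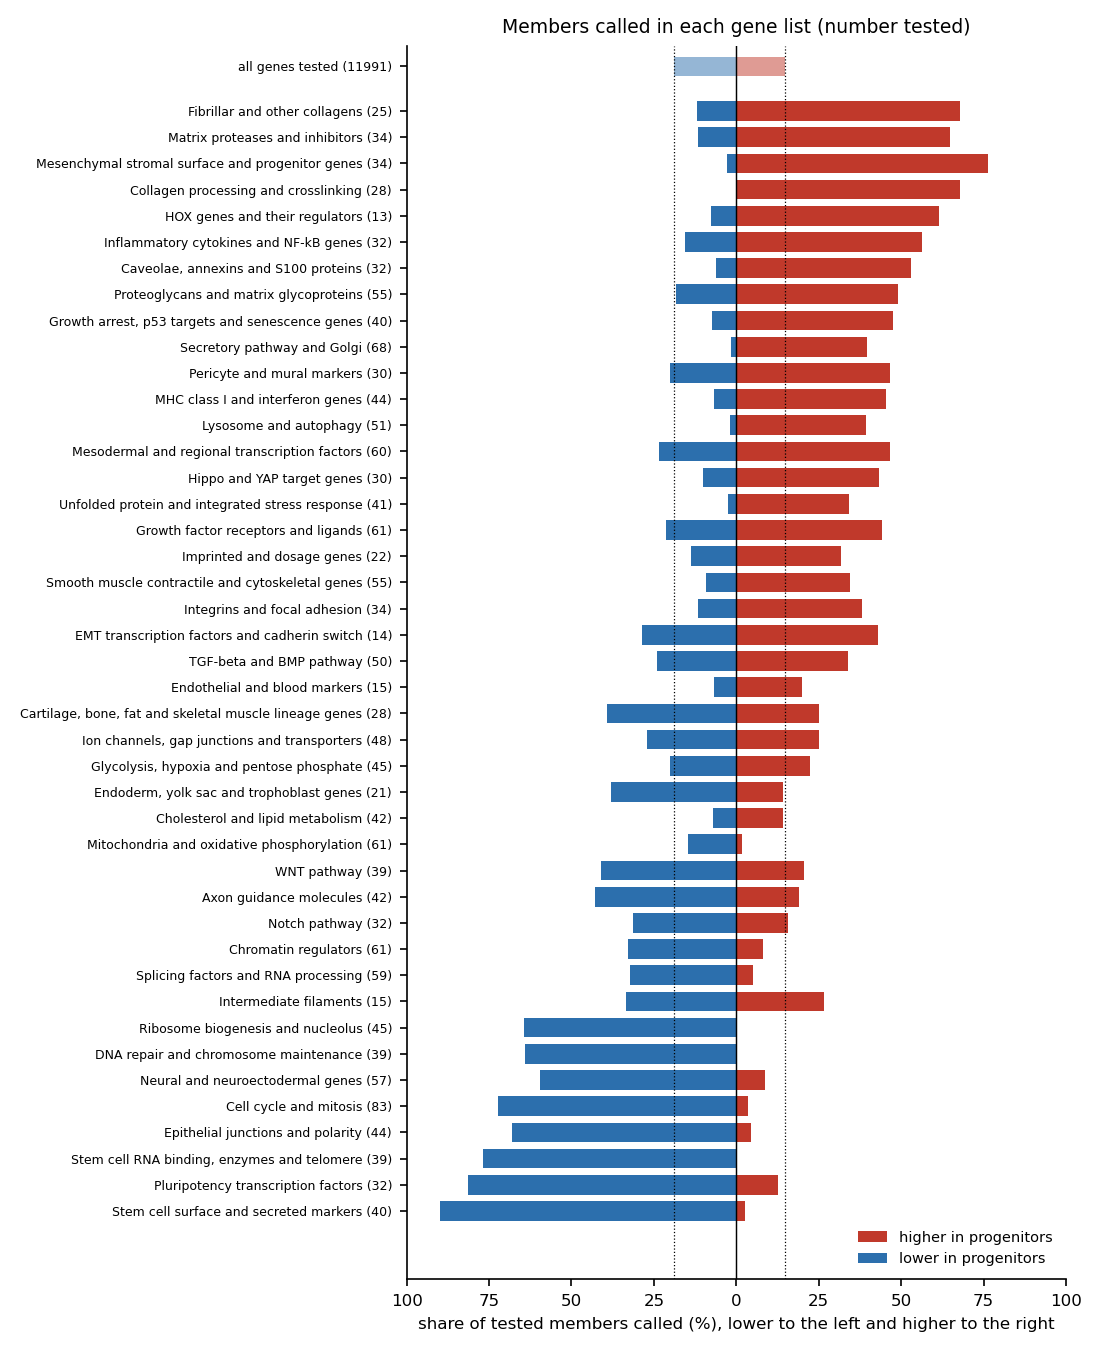
Share of the tested members of 43 gene lists that were called higher (red, to the right) or lower (blue, to the left) in progenitors, as percent of the members tested, whose number stands after each name; lists are ordered by median log2 fold change. The pale bar and the dotted lines give the same shares over all 11991 genes, 14.7% higher and 19% lower.

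Of the 332 genes given with values, 91 lie outside the rule by which genes were named and were chosen from their lists after their values were seen. The rule itself gave 557 genes, many of which are not given here. For most genes with several probes the probes gave 1 call. Among those named, a further probe of POU5F1, CALD1, CBX2, CCNE1, CDC25A, FGFR3, JAG2, PLAGL1, ROR1, TBX18, TPM2 and UNG was not called although the probe used was, and a further probe of BAX and CRTAP was called higher and one of ID2 lower although the probe used was not called.

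The arrays that stood apart left most calls in place. Without progenitor 2, 3858 genes were called, without hESC 3, 3998, and without both, 3823, against 4043 with all arrays. Of the 4043 calls, 3668 were kept in the same direction without progenitor 2 and 3815 without hESC 3. Progenitor 2 lay at least 2-fold from the mean of the other progenitor arrays in 590 genes and hESC 3 from the mean of the other hESC arrays in 417. Of these, 350 and 260 were called between the groups.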

How the data were processed

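Total RNA of 9 samples was hybridised to Illumina BeadChips, and 6 of them, 3 progenitor and 3 hESC arrays, are compared here. The authors deposited mean bead intensities per probe on a linear scale, without background subtraction or normalization, per the file headers and the values. They also deposited a detection p-value per probe and array, which moves in steps of 1 in 770. A second deposited table holds the authors' log2 values with the same quantiles on every array (median 8.67 on each), as levels not centred per gene, which served as an alternative. BeadStudio is named in the submitters' processing notes, and for its version, its settings, the background model and the genome build of the probes nothing is given in those sources.

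The intensities were background-corrected with normexp on the detection p-values (offset 16), quantile-normalized and put on the log2 scale with neqc of limma 3.58.1 in R 4.3.3. Of 47323 probes, 21683 were detected at p under 0.05 on at least 3 of the 9 arrays. Gene symbols come from the platform annotation, matched through Entrez identifiers to current symbols for 15585 of 15596 annotated probes. Of the probes kept, 15592 had 1 symbol and 6091 had none, and 4 annotated probes with several symbols were left out. Where a gene had several probes, the one with the highest average level across the 9 arrays stood for it. A linear model over 3 groups with limma's empirical Bayes test and Benjamini-Hochberg adjustment over 11991 genes gave the contrast of progenitors minus hESC. Adjusted p-values in the text are from this test. The fit has 6 residual degrees of freedom, and the number of arrays limits the precision. The fit was also run on simulated data with noise drawn independently for each array. The real arrays, of which 1 in each group stood apart, need not follow this, so that run gives no support to the p-values. Bounds written as "at least" set the mean of the group with signal against the lowest detected signal of each array, or the probe's own signal where that was higher.

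The rule for naming gave 557 genes, and the text gives values for only part of them. It took the 20 largest changes in each direction whose groups do not overlap, and the 10 genes of highest level in each group. From each list it took up to 6 called members by size, up to 4 against the list's direction and up to 4 not called. It also took every tested member of the mural, smooth muscle, collagen processing and EMT lists, and the cell type markers. No stated rule set which of these genes the text gives. Further list members were added after their values were seen. The members and the 43 lists were chosen with earlier results of these data known. Figures were drawn with matplotlib 3.10.9 and numpy 2.4.6. Alternatives covered scaling, background, detection filter, probe choice, test, blocks and left-out arrays.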

Additional observations from a re-analysis of the deposited data

Results flagged for a closer look

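On the chip, 534 probes without a gene name were detected on all 3 progenitor arrays and on none of the other 6 arrays, against 183 such probes on the hESC arrays alone. They carry signal in data that the comparisons above do not use, and none of either set has a name here. Among the 6091 unnamed probes that were detected on at least 3 arrays, 783 were higher and 504 lower in progenitors, with a median log2 fold change of 0.09. What these probes measure was not tested.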

How the results depend on the processing

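No call of a named gene, made here or under an alternative, stood against the direction of the other fit. The direction of genes uncalled in both fits was not compared. Of 4043 changed genes, 3720 kept their call with median scaling in place of quantiles, which moved the median log2 fold change of all genes to -0.24, against -0.07, and gave 1436 higher and 2788 lower genes. The authors' deposited values gave 2627 changed genes, 1357 of them lower, and intensities without background correction gave 1513 lower genes. Testing against a 2-fold change rather than 0 gave 2404 changed, 1045 higher and 1359 lower genes. Leaving out 1 array gave 3858 to 4139 changed, 1681 to 1811 higher and 2177 to 2328 lower genes, with fewest calls without progenitor 2, and 1 gene called with all arrays had the opposite sign without hESC 1. Leaving out both hESC 3 and progenitor 2, which was chosen after seeing the data, gave 3823, and averaging the closest arrays gave 3993.

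With the replicate number as a block, 4045 genes were changed (1759 higher and 2286 lower). Deviations from the group mean correlated at -0.03, 0.00 and 0.06 between arrays of the same number. Between arrays of different numbers the correlations were -0.08 to 0.06. With 3 arrays a group, 1 of which stands apart, these values cannot show whether the numbers pair the samples. Over all alternatives, the named genes lost a call 220 times and gained one 80 times, and 13266 times they stayed called or stayed uncalled. Of the counts over lists, 89 moved by more than 1.5 times and 1717 did not. The balance of higher against lower calls turned in 3 lists near balance: the glycolysis list with median scaling (9 higher and 11 lower), the intermediate filaments on the authors' values and without background correction (4 higher and 3 lower each), and the channels when tested against 2-fold (10 higher and 9 lower).

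The labels do not say whether the arrays of a group are separate cultures, and 1 array in each group stands apart. Signal near background gives only a bound. Culture conditions differ with the cell state, and genes without a named probe, such as CSPG4, MCAM and ABCC9, have no value here.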
